A study of Mus musculus with 3 samples.

Results

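A small group of cells with transcripts of Foxd1 and Dkk2 was described in 3 lots of fetal ovarian somatic cells. A cell was chosen for this group if it carried at least 1 unique molecular identifier (UMI, 1 counted mRNA molecule) of Foxd1 or Dkk2 and at least 1 UMI of Postn, Twist1, Nefm or Shisa3. It also had to have fewer than 5 UMIs of the germ cell gene Dazl and UMIs of fewer than 2 of the 5 cycling genes Top2a, Mki67, Ube2c, Ccnb1 and Cdc20. These 580 cells, called Foxd1/Dkk2 cells here, were 154 of 9711 cells of lot 26, 230 of 8553 cells of lot 29 and 196 of 10707 cells of lot 30, together 580 of 28971. Because the 12 genes of this rule chose the cells, their levels are given as a description and were not tested.

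Foxd1 is a forkhead transcription factor best known from the stromal progenitors of the embryonic kidney, and Dkk2 is a secreted protein that binds Wnt co-receptors. Postn encodes the matrix protein periostin, Twist1 a transcription factor of embryonic mesenchyme, Nefm a neurofilament subunit and Shisa3 a membrane protein that holds back Wnt and FGF receptors. Mesenchyme is the loose, collagen-producing tissue around epithelia, and in the fetal gonad stromal cells lie among and around the supporting cells that become granulosa cells.

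Each lot was a frozen pool of ovarian cells from E12.5 embryos of 10 pregnant CD1 mice. The mesonephros, the embryonic kidney beside the gonad, was cut away, the ovaries were dissociated with trypsin, and magnetic beads against SSEA1 and CD31 depleted germ cells and endothelial cells. Both remained in part, with 1418 kept cells at 5 or more Dazl UMIs and 315 with UMIs of both Pecam1 and Cdh5. The thawed cells were profiled by 10X Genomics single-cell RNA-seq of transcript 3′ ends. The lots had the same genotype and treatment, so no condition was compared, and the lot was the replicate (n = 3 lots). Differences beyond the spread between lots therefore refer to these pools of embryos, whose individual animals are not told apart.

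The tables held 87494974 to 141920060 UMIs per lot, lot 29 having the fewest, and any pair of lots had 20 to 30 cell barcodes in common. Foxd1/Dkk2 cells were shallower than other cells, with a median of 7801.5, 6879 and 8983 UMIs in lots 26, 29 and 30 against 11126, 8949 and 11595 UMIs in all kept cells. A doublet caller marked 62 of the 580 cells (10.7%), its marks falling on 12.3%, 3.04% and 18.4% of the Foxd1/Dkk2 cells of lots 26, 29 and 30. Of all kept cells it marked 6.18%, with 7.81%, 4.06% and 6.41% in the lots, so the Foxd1/Dkk2 cells had more marks in lots 26 and 30 and fewer in lot 29. The 62 marked cells had a median of 18051.5 UMIs, and 40 of them (64.5%) carried UMIs of both Fst and Gng13, a pair of pre-granulosa genes, as 29 of the other 518 Foxd1/Dkk2 cells did (5.6%). At least 1 UMI of a Y-linked gene was found in 3.25%, 10.0% and 1.53% of the Foxd1/Dkk2 cells of the 3 lots and in 2.52%, 7.04% and 0.634% of the matched cells defined below. The part of marked doublets and of cells with Y-linked UMIs in the results was tested only by leaving them out.

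In lot 26 the Foxd1/Dkk2 cells were 1.59% of cells, with a 95% Clopper-Pearson exact interval from 1.35 to 1.85. They were 2.69% in lot 29 (2.36 to 3.05) and 1.83% in lot 30 (1.59 to 2.10), on average 2.04% ± 0.579 (SD, n = 3 lots). The interval of lot 29 did not meet those of the other lots, which overlapped each other; such intervals cover counting error only. When every cell was thinned to 4000 UMIs and the rule was applied again, the shares were 1.24% (1.02 to 1.48), 2.25% (1.94 to 2.60) and 1.56% (1.33 to 1.82), and lot 29 was again apart. The limits on Dazl and cycling genes were then also read from thinned counts and were easier to meet. Of the 117, 187 and 162 cells so chosen in lots 26, 29 and 30, 98, 165 and 123 were within these limits at full depth. Under a strict rule that asked for 2 UMIs where 1 was asked, the shares were 0.989% (0.801 to 1.21), 1.61% (1.36 to 1.90) and 1.19% (0.990 to 1.41), and the intervals of lots 29 and 30 overlapped. In the full data the 2 gene conditions, without the limits on Dazl and cycling genes, were also met by 2.19% of germ cells with at least 5 Dazl UMIs, whose median depth was 21716 UMIs, and by 2.54% of cells with UMIs of both Pecam1 and Cdh5, at a median of 14820 UMIs. At that full depth the share was 2.98% of all cells within the limits, at a median of 9490 UMIs, and 3.73% of all kept cells. At 4000 UMIs they were met by 0.423% of those germ cells and by 0 of 311 such endothelial cells, which allows a share of up to 1.18% by the exact interval, by 2.06% of all cells within the limits and by 2.29% of all kept cells.

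Foxd1 was found in 82.6% of the 580 cells and Dkk2 in 54.3%. Of the 580 cells, 265 carried Foxd1 without Dkk2, 101 carried Dkk2 without Foxd1, and 214 carried both. Postn was found in 71.9%, Twist1 in 69.5%, Nefm in 48.6% and Shisa3 in 32.6%. Levels are given as CPM, the UMIs of a gene per 1000000 UMIs summed over a group of cells in a lot. Foxd1 had 245, 375 and 258 CPM in the Foxd1/Dkk2 cells of lots 26, 29 and 30, and Dkk2 had 234, 194 and 241 CPM. Both were at 0.589 to 2.52 CPM in the 18869 matched cells, that is the other kept cells under the same limits on Dazl and cycling genes. Postn had 281, 261 and 251 CPM, Twist1 160, 243 and 240 CPM, Nefm 254, 315 and 284 CPM, and Shisa3 62.5, 103 and 67.2 CPM. In matched cells these 4 genes were at 1.70 to 12.7 CPM. They were not as low in the Lum and Dcn cells described below, where Postn had 87.1 to 116.3 CPM and Twist1 55.5 to 104.1 CPM. Nefm had 63.2 to 100.2 CPM and Shisa3 11.95 to 17.99 CPM there, all below every lot of the Foxd1/Dkk2 cells. Foxd1 and Dkk2 were at 3.26 to 11.56 CPM in the Lum and Dcn cells. In GRCm38 Foxd1 lies on the plus strand at chr13:98354242-98359305 and Dkk2 on the plus strand at chr3:132085292-132180304, both protein-coding. Exons of Nefm share 1108 bases with those of Nefl on the other strand and exons of Shisa3 share 138 bases with Atp8a1, so reads of these genes may not be told apart if counting ignored strand.

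The rule's own genes are set side by side here as a description, with no test. Among cells within the limits, Foxd1 or Dkk2 was found in 2.05% of the 16319 cells with none of Postn, Twist1, Nefm and Shisa3. This share was 7.79% of 2297 cells with 1 of the 4 genes, 34.0% of 521 cells with 2, 65.1% of 212 cells with 3 and 86.0% of 100 cells with all 4. The 5 classes had median depths of 9570, 9232, 8317, 7402.5 and 9597 UMIs, and the part of depth in the shares was not tested. In each lot the share was higher the more of the 4 genes a cell carried, from 1.64%, 2.25% and 2.24% with none to 82.6%, 86.7% and 87.2% with all 4.

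**Figure D1:**
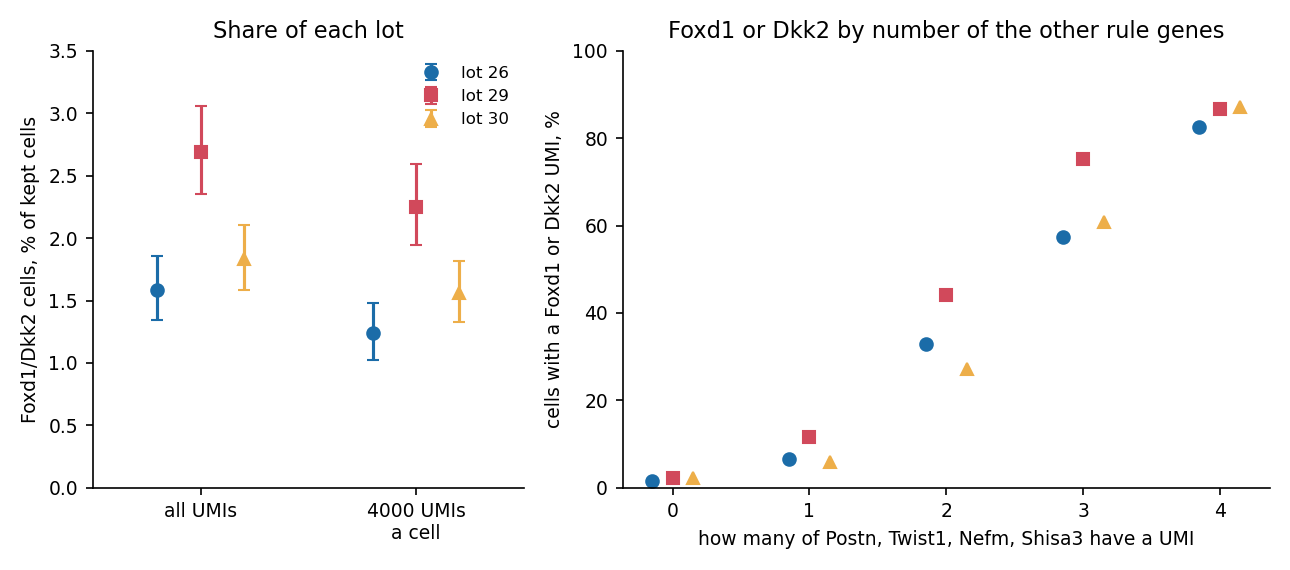
Left, Foxd1/Dkk2 cells as percent of the kept cells of lots 26, 29 and 30, with all UMIs and at 4000 UMIs a cell; lot 29 is highest in both. Right, percent of cells within the limits that carry a Foxd1 or Dkk2 UMI, by how many of Postn, Twist1, Nefm and Shisa3 they carry, from 2.05% with none to 86.0% with all 4 over the lots; points are lots, and bars, in the left panel only, are exact 95% binomial intervals.

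UMI counts were summed per lot in the Foxd1/Dkk2 cells and in the matched cells and compared by the quasi-likelihood test of edgeR, and p-values were adjusted over all genes by the Benjamini-Hochberg method. As the cells were chosen from the same counts, this test asks only whether a difference exceeds the spread between lots, and not whether these cells form a type. Of 14124 genes tested besides the rule genes, 2054 were higher in the Foxd1/Dkk2 cells (14.5%) and 2254 were lower (16.0%), 30.5% in all, at an adjusted p under 0.05. The median log2 fold change over all genes tested was -0.03. Without lot 30 the counts were 1209 higher and 1297 lower, and without lot 26 1434 were lower. The comparisons that follow share the sums of the Foxd1/Dkk2 cells and are not independent of each other.

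The 12 genes with the highest folds were taken from called genes at 20 CPM or more in the Foxd1/Dkk2 cells. Adamts18, a secreted metalloprotease, had 76.1, 70.7 and 58.9 CPM in the Foxd1/Dkk2 cells of lots 26, 29 and 30 and 0.376, 1.20 and 0.512 CPM in matched cells (log2 fold change 6.54 ± 0.34 SE, adjusted p = 1.2e-06). Fmo2, a flavin-containing monooxygenase, had 30.6, 37.5 and 79.5 CPM against 0.204, 1.20 and 0.525 CPM (6.21 ± 0.55, adjusted p = 3.3e-05). Efemp1, a fibulin of the extracellular matrix, had 34.5, 82.7 and 63.5 CPM against 1.28, 0.778 and 0.781 CPM (5.86 ± 0.33, adjusted p = 1.7e-06). Each of these genes was at least an order of magnitude higher in every lot, and no lot of one group met a lot of the other. They were picked for high folds and for being higher in every lot, so this gap follows largely from the picking. The cadherin gene Cdh8 had 14.3, 42.4 and 27.9 CPM against 0.423, 0.652 and 0.295 CPM (5.86 ± 0.44, adjusted p = 1.1e-05). Fap, a surface protease of activated fibroblasts, was nearly the same in all lots, with 61.2, 58.8 and 60.8 CPM against 2.04, 1.22 and 1.64 CPM (5.05 ± 0.18, adjusted p = 1.7e-07). Fap and Nav3 thus had a narrow spread between lots, whereas Cdh8, Fmo2 and Efemp1 varied by over 2-fold between lots within the group.

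The other genes named for the highest folds were Nav3 (5.16 ± 0.20), the small matrix proteoglycans Ogn (4.83 ± 0.26) and Lum (4.53 ± 0.22), the microfibril gene Mfap5 (4.75 ± 0.20), Nefl (4.70 ± 0.37), the BMP-binding secreted gene Bmper (4.52 ± 0.20) and the forkhead gene Foxp2 (4.51 ± 0.14), all log2 fold changes ± SE. Nefl overlaps the rule gene Nefm, as given above, and is therefore uncertain. Among the genes with the lowest folds, 5 encode globins. Hbb-bs had 31.9, 22.9 and 27.0 CPM in Foxd1/Dkk2 cells against 608, 582 and 605 CPM in matched cells (-4.61 ± 0.13, adjusted p = 1.2e-07), and Hba-x, Hbb-y, Hba-a1 and Hbb-bt were lower by -6.20 ± 1.26, -5.04 ± 0.90, -4.56 ± 0.43 and -4.51 ± 0.19. The embryonic globins were uneven between lots in matched cells, Hba-x standing at 60.3, 665 and 80.5 CPM. The 2 stromal groups described below had as little globin as the Foxd1/Dkk2 cells, with Hbb-bs at 19.2 to 32.6 CPM. Spink4, a secreted protease inhibitor, and Susd3 were lower by -3.00 ± 0.38 and -2.98 ± 0.21. Chgb, a secretory granule gene, had 0, 0.544 and 0.457 CPM against 9.07, 54.7 and 7.57 CPM (adjusted p = 0.035), and without lot 26 it did not pass (adjusted p = 0.0765).

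**Figure D2:**
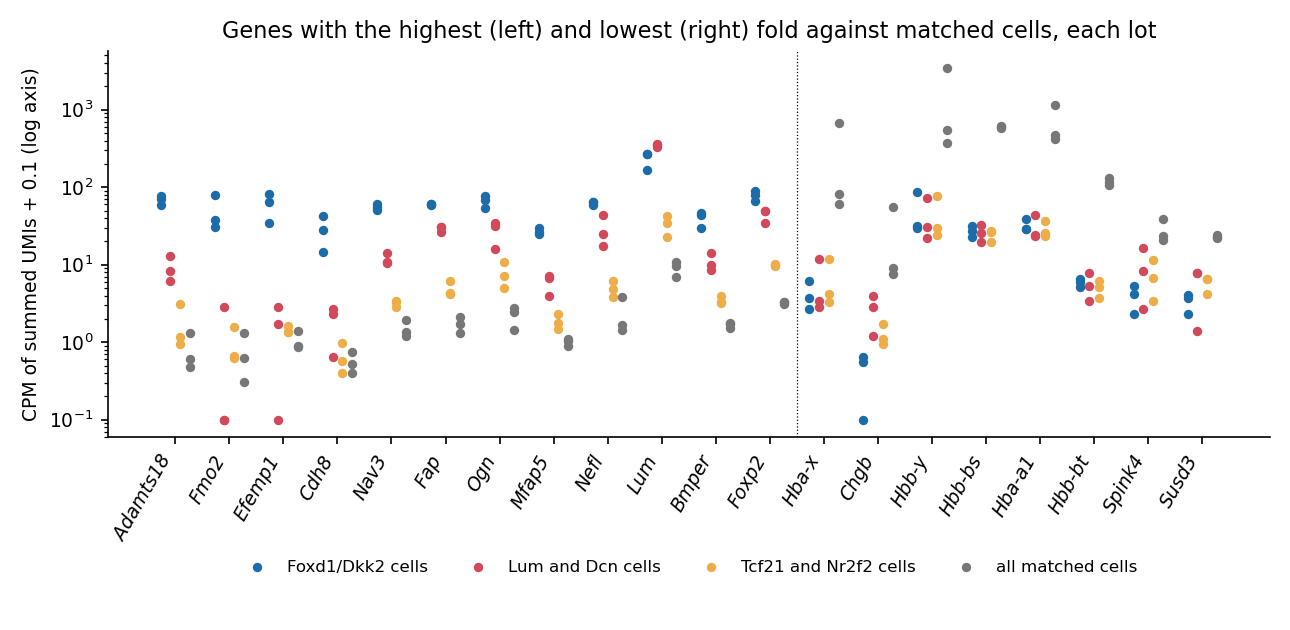
CPM + 0.1 on a log axis of the 12 genes with the highest and the 8 with the lowest log2 fold change between Foxd1/Dkk2 cells and matched cells, each point 1 lot. The 12 genes on the left are highest in Foxd1/Dkk2 cells except Lum, which is higher in Lum and Dcn cells (332 to 364 CPM), chosen for Lum; the globin genes on the right are high in matched cells and similar in the other 3 groups.

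Genes of the fibroblast matrix were the most uniformly higher list. Of 30 matrix genes tested, 28 were higher and 0 lower, with a median log2 fold change of 2.27; Col12a1 (0.08 ± 0.14, adjusted p = 0.69) and Eln (0.64 ± 0.24, adjusted p = 0.07) did not pass. Col1a1, the main chain of type I collagen, had 1029, 969 and 991 CPM against 91.5, 61.9 and 72.0 CPM (3.58 ± 0.14, adjusted p = 2.6e-07). Together the 30 genes gave 14789 to 15841 CPM in the Foxd1/Dkk2 cells and 3566 to 3750 CPM in matched cells. These levels, with those of Prrx1 below, fit the name mesenchyme given to the group.

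Of 40 mesenchymal and stromal transcription factors tested, 29 were higher and 4 lower, with a median of 1.82. The early B cell factor Ebf2 was higher by 5.53 ± 0.40 on the log2 scale, Tbx18, a T-box factor of mesenchyme around the urogenital ducts, by 5.31 ± 0.41, and Foxp2 by 4.51 ± 0.14. Ebf1 had 108, 118 and 119 CPM against 6.17, 3.58 and 4.32 CPM (4.47 ± 0.18, adjusted p = 2.9e-07). Prrx1, a homeobox factor of limb and trunk mesenchyme, had 172, 215 and 161 CPM against 9.44, 7.70 and 8.45 CPM (4.27 ± 0.14, adjusted p = 1.4e-07). The 4 lower genes were factors of the gonadal ridge. Lhx9 had 114, 99.0 and 140 CPM against 337, 358 and 400 CPM (-1.78 ± 0.14, adjusted p = 1.5e-05). Gata4 (-1.76 ± 0.19, adjusted p = 0.00011) and Nr5a1 (-1.75 ± 0.24, adjusted p = 0.00044) were lower by a similar step. Wt1 was lower by -0.58 ± 0.17 (adjusted p = 0.028) and did not pass without lot 26 (adjusted p = 0.114) or lot 30 (adjusted p = 0.0552). These factors were thus lower in the Foxd1/Dkk2 cells but were not at 0.

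Hox genes, which record position along the body axis, were higher as a group. Of 30 tested, 24 were higher and 1 lower, with a median of 2.34, and the 38 Hox genes in the tables summed to 870 to 1080 CPM against 270 to 295 CPM. Hoxa5 had 88.5, 56.6 and 64.0 CPM against 4.82, 5.22 and 4.01 CPM (3.74 ± 0.18, adjusted p = 7.5e-07). Hoxa11 had 6.51, 10.3 and 3.20 CPM against 0.266, 0.252 and 0.115 CPM (4.83 ± 0.55, adjusted p = 0.00015), and Hoxa6 was higher by 3.61 ± 0.37. Among the 24 were 9 Hoxa genes, from Hoxa2 to Hoxa11. The single lower gene was Hoxd9, with 26.7, 51.7 and 36.6 CPM against 58.3, 66.0 and 66.3 CPM (-0.86 ± 0.19, adjusted p = 0.0069), named after its values were seen. Without lot 30 Hoxd9 did not pass (adjusted p = 0.0627).

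Wnt genes were called in both directions. Of 11 ligands and R-spondins tested, 4 were higher (Wnt2, Rspo3, Wnt11 and Wnt5a) and 4 lower (Wnt6, Wnt9a, Rspo1 and Wnt4), with a median of -0.46. Wnt5a was instead called lower against both the Lum and Dcn cells and the Tcf21 and Nr2f2 cells described below. Leaving out any 1 lot lost these calls (adjusted p = 0.0811 to 0.154 and 0.082 to 0.0974). The second call was also lost without marked doublets (adjusted p = 0.0707). Rspo3, which amplifies Wnt signals, had 180, 183 and 189 CPM against 11.2, 13.0 and 9.25 CPM (3.90 ± 0.14, adjusted p = 2.1e-07). Wnt6 went the other way, with 139, 53.3 and 162 CPM against 510, 504 and 511 CPM (-2.26 ± 0.30, adjusted p = 0.00038). Wnt2, at 3.66 to 8.16 CPM, was higher by 3.91 ± 0.46. Of the R-spondins, Rspo3 was thus higher and Rspo1 lower in Foxd1/Dkk2 cells (Rspo1 -1.88 ± 0.15, adjusted p = 1.5e-05).

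Of 19 Wnt receptors and co-receptors, 7 were higher and 3 lower, with a median of 0.33. Ror2 (3.12 ± 0.17) and Ror1 (2.88 ± 0.21), receptors for Wnt5a, were the highest, and Lgr5, a receptor for R-spondins, was lower by -2.14 ± 0.33 (adjusted p = 0.00097). Of 11 secreted Wnt antagonists besides Dkk2, 5 were higher and 0 lower, with a median of 2.03. Sfrp1 had 467, 577 and 493 CPM against 74.5, 82.6 and 78.1 CPM (2.56 ± 0.12, adjusted p = 7.5e-07). Sfrp2 was less even, with 85.2, 323 and 99.6 CPM against 13.7, 14.5 and 10.9 CPM (3.56 ± 0.45, adjusted p = 0.00027), lot 29 being highest, and the low-level gene Frzb was higher by 3.82 ± 0.73 (adjusted p = 0.0033). Of 10 genes that Wnt signals commonly raise, 0 were higher and 5 lower, with a median of -0.60. They were Rnf43 (-2.35 ± 0.35), Sp5 (-1.84 ± 0.27), Lef1 (-1.40 ± 0.13), Axin2 (-1.35 ± 0.17) and Tcf7. Axin2 had 22.8, 16.3 and 29.7 CPM in Foxd1/Dkk2 cells and 58.0, 48.2 and 53.9 CPM in matched cells.

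Other signalling lists had smaller medians than the matrix and Hox lists. Of 11 Hedgehog pathway genes, 4 were higher (Gli1, Gli3, Gli2 and Smo) and 0 lower, with a median of 0.39. Gli1, a target and effector of the pathway, had 11.1, 12 and 8.22 CPM against 1.96, 1.47 and 0.832 CPM (2.72 ± 0.38, adjusted p = 0.0005). Smo did not pass without lot 30 (adjusted p = 0.0736). Of 24 BMP and TGF-beta genes, 12 were higher and 3 lower, with a median of 0.59. Bmp3, a secreted factor that opposes other BMPs, was near 0 in matched cells, at 16.9, 15.2 and 17.8 CPM against 0.204, 0.231 and 0.192 CPM (6.16 ± 0.30, adjusted p = 7.5e-07). Tgfb2 had 284, 250 and 308 CPM against 38.1, 35.4 and 41.2 CPM (2.73 ± 0.11, adjusted p = 2.9e-07). Of 19 FGF and PDGF genes, 6 were higher and 3 lower, with a median of 0.39, the highest being Pdgfrb (2.43 ± 0.16) and Pdgfd (2.19 ± 0.20). Of 11 IGF genes, 6 were higher and 1 lower, with a median of 0.72, led by the imprinted gene Dlk1 (2.14 ± 0.11), and Igfbp2 was lower by -1.44 ± 0.20.

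Of 13 genes that make, carry, receive or break down retinoic acid, 9 were higher and 1 lower, with a median of 1.23. Crabp1, a cytosolic binding protein for retinoic acid, had 309, 630 and 360 CPM against 19.2, 22.7 and 20.3 CPM (4.24 ± 0.27, adjusted p = 3.5e-06). The receptors Rarg (2.98 ± 0.17) and Rarb (2.93 ± 0.19) were both higher, and exons of Rarb share 1793 bases with Top2b, so its value is uncertain. Enzymes of retinoic acid metabolism went both ways: Rdh10 (1.63 ± 0.15), Dhrs3 (0.70 ± 0.09) and Aldh1a2 (0.43 ± 0.14, adjusted p = 0.0458) were higher, and Aldh1a1 was the 1 lower gene (-2.32 ± 0.28, adjusted p = 0.00024). Aldh1a2 did not pass without lot 29 (adjusted p = 0.0885), without lot 30 (adjusted p = 0.21) or without cells with Y-linked UMIs (adjusted p = 0.0524), and the receptor Rara did not pass (adjusted p = 0.112). Of 23 axon and cell guidance genes, 17 were higher and 1 lower (Plxna4), with a median of 1.37. The chemokine Cxcl12 had 295, 557 and 296 CPM against 23.3, 25.9 and 23.6 CPM (3.83 ± 0.25, adjusted p = 5e-06), and Ntn1 (3.66 ± 0.43) and Slit3 (3.42 ± 0.16) were also higher.

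A list of 14 genes of the embryonic kidney stroma had 12 members higher and 0 lower, with a median of 2.37, and summed to 2390 to 2541 CPM against 575 to 585 CPM. Besides Tbx18 these were led by Ecm1, with 188, 236 and 292 CPM against 16.1, 12.3 and 12.7 CPM (3.98 ± 0.18, adjusted p = 4.6e-07), and by Penk (3.72 ± 0.33, adjusted p = 3.1e-05). This list shares genes with the lists above, among them Meis1, Tbx18, Ntn1, Sfrp1, Rarb, Aldh1a2 and Dlk1. Genes of nephron progenitors and tubules did not go along with it. Of 11 tested, 2 were higher (Osr1, an early factor of intermediate mesoderm, by 2.25 ± 0.24, and Eya1 by 1.04 ± 0.33) and 4 lower, with a median of -1.17. Six2, the defining nephron progenitor factor, was at 0, 4.35 and 0 CPM. Eya1 did not pass when any 1 lot was left out (adjusted p = 0.0779 to 0.136).

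**Figure D3:**
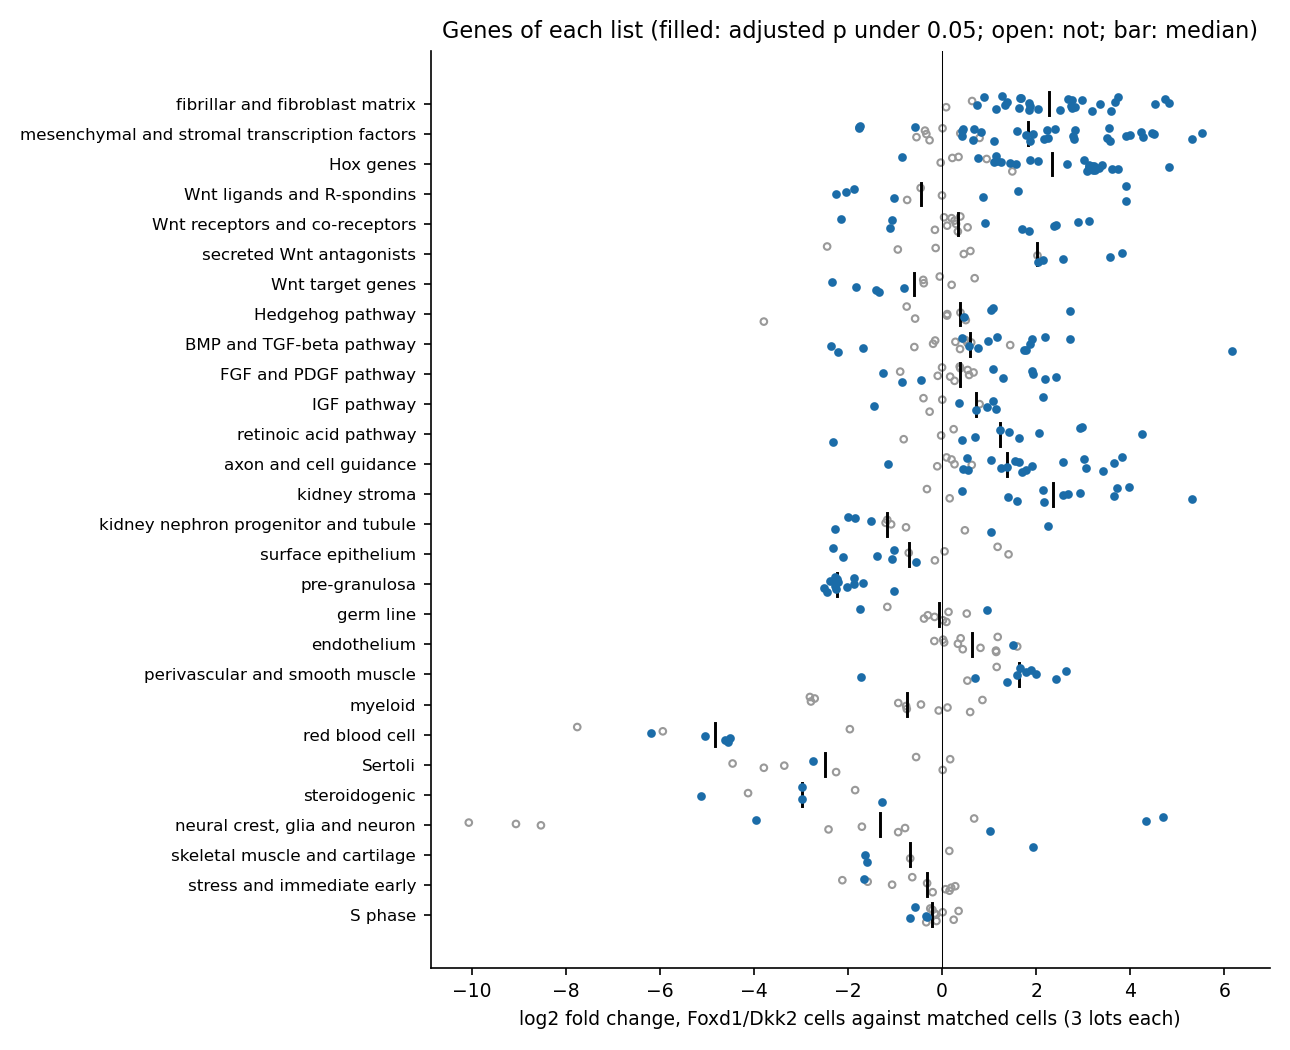
Log2 fold change between Foxd1/Dkk2 cells and matched cells for each tested gene of 28 lists; filled points passed (adjusted p under 0.05), open points did not, and the bar is the list's median. Matrix (median 2.27), Hox (2.34) and kidney stroma (2.37) genes lie to the right, pre-granulosa genes (-2.25) to the left.

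Markers of pre-granulosa cells, the supporting cells of the ovary, were lower throughout. All 13 tested were lower, with a median of -2.25, and they summed to 639 to 1391 CPM against 3843 to 4458 CPM. Fst, a secreted activin antagonist, had 87.8, 52.8 and 178 CPM against 533, 559 and 562 CPM (-2.51 ± 0.33, adjusted p = 0.00038). Gng13 had 297, 64.8 and 148 CPM against 1146, 629 and 612 CPM (-2.39 ± 0.44, adjusted p = 0.0028), with an overlap of 399 exon bases with Chtf18. Foxl2 was at 0, 0 and 1.83 CPM against 4.90, 2.71 and 2.97 CPM (adjusted p = 0.036) and did not pass without lot 26 (adjusted p = 0.164) or lot 29 (adjusted p = 0.116). Some pre-granulosa transcripts were thus present in the Foxd1/Dkk2 cells, UMIs of both Fst and Gng13 being found in 13.6%, 4.78% and 18.9% of them against 50.3%, 36.5% and 43.7% of matched cells. The lots with more marked doublets, 26 and 30, also had more of these cells.

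Of 11 surface epithelium genes, 0 were higher and 6 lower, with a median of -0.71. Aldh1a1 led them, and the keratins Krt8 (-2.12 ± 0.19) and Krt18 (-1.40 ± 0.18) were lower. Krt19 had 23.4, 43.5 and 41.6 CPM against 39.0, 36.3 and 35.9 CPM (adjusted p = 0.56). UMIs of both Upk3b and Krt19 were found in 6.72% of Foxd1/Dkk2 cells and 6.66% of matched cells. Epithelial transcripts were thus present in both groups, and their part in the result was not tested. Upk3b, among the 6 lower genes, did not pass without lot 29 (adjusted p = 0.0736) or lot 30 (adjusted p = 0.0535). Of 10 germ line genes, 1 was higher (Kit) and 1 lower (Dnd1), with a median of -0.07, in groups that share a limit on Dazl. Kit did not pass without lot 29 (adjusted p = 0.0759). Ddx4 was at 1.30, 1.09 and 2.28 CPM in Foxd1/Dkk2 cells and Pou5f1 at 0, 0 and 0.457 CPM.

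Endothelial markers were uneven between lots. The 12 genes summed to 173 to 409 CPM against 135 to 200 CPM, with 1 gene higher (Emcn, 1.51 ± 0.40, adjusted p = 0.018), 0 lower and a median of 0.63. Emcn did not pass without lot 30 (adjusted p = 0.0912) or at 4000 UMIs (adjusted p = 0.0812). Pecam1 had 48.1, 0.544 and 3.66 CPM against 12.6, 2.61 and 4.29 CPM (adjusted p = 0.41), lot 26 being high. Cdh5 had 40.3, 2.18 and 6.40 CPM against 11.2, 2.67 and 4.69 CPM (adjusted p = 0.32, and 0.0163 with the lot as a block). Only 2 of the 580 cells, 1 in lot 26 and 1 in lot 30, carried both Pecam1 and Cdh5 UMIs. When all cells with a Pecam1 or Cdh5 UMI were removed, an alternative added after the data were seen, 2061 genes were higher and 2374 lower.

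Of 12 perivascular and smooth muscle genes, 9 were higher and 1 lower (Myh11), with a median of 1.63. Kcnj8, a potassium channel of pericytes, had 10.4, 18.5 and 8.68 CPM against 1.85, 1.87 and 1.73 CPM (2.64 ± 0.31, adjusted p = 0.00017), and Pdgfrb was given above. Of the contractile genes, Cnn1 was higher by 1.99 ± 0.36 and Acta2 had 59.9, 74.6 and 114 CPM against 47.9, 44.6 and 46.6 CPM (0.71 ± 0.18, adjusted p = 0.017). Acta2 did not pass without lot 29 (adjusted p = 0.0528) or lot 30 (adjusted p = 0.156). Against the Lum and Dcn cells described below, Acta2 was instead called lower. That call was lost without lot 26 (adjusted p = 0.218) or lot 29 (adjusted p = 0.266) and by DESeq2 (adjusted p = 0.18). It was also lost without marked doublets (adjusted p = 0.112) and under the strict rule (adjusted p = 0.149).

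Of 8 red blood cell genes, 5 were lower and 0 higher, with a median of -4.83, or -4.59 with the 1 gene at 0 in Foxd1/Dkk2 cells set to a floor of 3 UMIs over the group. Of 6 steroidogenic genes, 4 were lower and 0 higher, with a median of -2.98, and Cyp17a1 was found in 1 lot only, at 0.457 CPM. Of 8 Sertoli genes, 1 was lower (Aard, -2.75 ± 0.55) and 0 higher, with a median of -2.50. Amh had 8.46, 2.72 and 0.914 CPM against 9.91, 35.6 and 1.36 CPM (adjusted p = 0.28, and 0.00231 with the lot as a block). None of 11 myeloid genes passed, with a median of -0.75. Of 12 genes of neural crest, glia and neurons, 3 were higher (Nefl, Stmn2 and Fabp7) and 1 lower (Tubb3), with a median of -1.32, or -1.17 with the 3 genes at 0 set to that floor. This list summed to 141 to 187 CPM against 24.7 to 48.2 CPM, and most of the sum in Foxd1/Dkk2 cells came from Nefl and Stmn2. Nefl had 58.6, 64.8 and 63.5 CPM in Foxd1/Dkk2 cells, and as it overlaps the rule gene Nefm it is uncertain. Stmn2, a neuronal microtubule regulator, had 62.5, 98.5 and 90.0 CPM against 2.76, 7.01 and 1.90 CPM (4.33 ± 0.45, adjusted p = 9.4e-05). Fabp7 and Tubb3 each lost the call without at least 1 lot (adjusted p = 0.0544 to 0.165). Foxd3, Th, Dbh, Chga and Sox10, which define neural crest and its derivatives, were at 0 in every lot. Not all of them passed the low-count filter, so a level of 0 need not set these cells apart from matched cells. Of 5 skeletal muscle and cartilage genes tested, 1 was higher (Runx2, 1.93 ± 0.35, with an adjusted p of 0.342 under a stricter rule asking for 2 UMIs) and 2 lower, with a median of -0.68, and Myf5, Myog, Pax7 and Pax3 were at 0. Of 11 stress genes, 1 was lower (Hspb1) and 0 higher, with a median of -0.32. Of 13 S phase genes, 4 were lower and 0 higher, with a median of -0.21, in groups that share a limit on cycling genes. None of the 4 Y-linked genes passed.

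Against all 28391 other kept cells, which include germ cells and dividing cells, 2032 of 14853 genes were higher (13.7%) and 2403 lower (16.2%), 29.9% in all. Without lot 30 the counts were 1276 and 1343, and the lower count was 1442 without lot 26 and 1543 without lot 29. The genes named for the highest folds were again Adamts18 (5.21 ± 0.26), Cdh8, Fmo2, Efemp1, Nav3, Ogn, Fap, Lum, Nefl and Mfap5, with Fam19a1 and Stmn2. Fam19a1, a secreted chemokine-like gene, had 24.7, 25.0 and 16.9 CPM in Foxd1/Dkk2 cells against 0.740, 1.61 and 0.690 CPM (4.34 ± 0.40, adjusted p = 3.1e-05). The lower genes named were germ cell genes (Dppa5a, Rbmxl2, Rhox6, Stra8, Rhox9 and Stk31), Hba-x and the kinetochore gene Ndc80. The limits of the rule on Dazl and cycling genes bear on that direction, so nothing is read from it.

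The closest comparison was with 503 other cells that carried UMIs of the matrix genes Lum and Dcn and were under the same limits. Of the Foxd1/Dkk2 cells themselves, 53.6% carried both genes, 57.1%, 39.1% and 67.9% in lots 26, 29 and 30. Here 156 of 10185 genes were higher in Foxd1/Dkk2 cells (1.53%) and 65 lower (0.638%), 2.17% in all. With the lot as a block the counts were 350 and 344, and higher genes were then 50.4% of the calls in place of 70.6%. Leaving out lot 26, 29 or 30 left 74, 99 or 81 higher and 18, 24 or 43 lower, and leaving out marked doublets gave 190 higher and 126 lower.

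Matrix genes set the Foxd1/Dkk2 cells less apart here, with 6 of 28 higher and 0 lower (median 0.26, against -0.01 over all genes tested). The Lum and Dcn cells were chosen by genes of this list, so a smaller difference was in part built in. Their sums held 778348 to 1840744 UMIs against 47530901 to 78096132 in matched cells, so the counts of calls are not directly comparable. Col1a1 had 784, 775 and 669 CPM in Lum and Dcn cells (0.38 ± 0.10, adjusted p = 0.079). The genes named for the highest folds were Fmo2 (5.36 ± 0.63), Efemp1 (4.99 ± 0.47), Fam19a1 (4.14 ± 0.54), Cdh8 (4.08 ± 0.55), Khdrbs2 (3.8 ± 0.55), Stmn2 (3.16 ± 0.30), Adamts18 (3.00 ± 0.23) and Elavl2 (2.59 ± 0.29). Efemp1 was at 2.77, 0 and 1.63 CPM in Lum and Dcn cells and Adamts18 at 6.10, 12.8 and 8.15 CPM. Khdrbs2 and Elavl2 encode RNA-binding proteins known from neurons. Of the lower genes named, Aim2, A230065H16Rik, Kcnk2, Tceal6, Enpep and Hsd11b2 had log2 fold changes of -1.65 to -1.32, and all but A230065H16Rik lost the call without at least 1 lot (adjusted p = 0.0757 to 0.349).

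Among the lists, 10 of 38 transcription factors were higher and 3 lower (median 0.17). Ebf3 (5.02 ± 0.63), Ebf2 (4.27 ± 0.48) and Tbx18 (3.20 ± 0.52) led those higher, and Tbx2 and Tcf21 were among the lower. Tcf21 had 175, 156 and 147 CPM against 258, 262 and 210 CPM (-0.65 ± 0.13, adjusted p = 0.014) and did not pass without lot 26 (adjusted p = 0.12) or lot 29 (adjusted p = 0.104). Of 24 Hox genes, 6 were higher and 0 lower (median 0.66), and they were mainly of groups 8 to 10. Hoxa9 had 39.7, 49.5 and 49.3 CPM against 13.9, 12.8 and 13.6 CPM (1.74 ± 0.20, adjusted p = 0.00019). Hoxc9 (1.52 ± 0.23, adjusted p = 0.0019) and Hoxc10 (1.65 ± 0.27, adjusted p = 0.003) kept their calls under every alternative run, although exons of Hoxc10 share 166 bases with Hoxc5 on the same strand. Hoxa10, Hoxc8 and Hoxa5 were also higher, and each lost its call without at least 1 lot (adjusted p = 0.0542 to 0.286). At 4000 UMIs Hoxa5 (adjusted p = 0.685) and Hoxc8 (adjusted p = 0.562) did not pass either. These genes were named after their values were seen.

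Of 11 retinoic acid genes, 4 were higher and 0 lower (median 0.75). Crabp1 stood at 57.7, 121 and 82.6 CPM in Lum and Dcn cells (2.34 ± 0.27, adjusted p = 0.00028) and Crabp2 was higher by 1.70 ± 0.23 (adjusted p = 0.00072). Rarb and Aldh1a2 passed but did not when 1 lot was left out (adjusted p = 0.0833 to 0.375). Rarb also lost its call by DESeq2 (adjusted p = 0.162) and at 4000 UMIs (adjusted p = 0.385). Rspo3 had 39.9, 63.0 and 47.8 CPM in Lum and Dcn cells (1.89 ± 0.15, adjusted p = 9.4e-06), and Wnt4, a Wnt ligand of the fetal ovary, had 416, 466 and 481 CPM there against 286, 217 and 284 CPM (-0.84 ± 0.12, adjusted p = 0.0018). The kidney stroma list had 5 of 12 genes higher and 0 lower (median 0.43). None of 13 Wnt receptors, 9 Hedgehog genes and 11 IGF genes passed. These lists were read after the values were seen, beside 2.17% of all genes called.

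Against 3210 other cells with UMIs of Tcf21 and Nr2f2, factors of gonadal stroma, 889 of 11938 genes were higher (7.45%) and 681 lower (5.7%), 13.2% in all. Both factors were found in 51.2% of the Foxd1/Dkk2 cells. With the lot as a block the counts were 1550 and 1667, and leaving out marked doublets gave 1088 and 1065. Leaving out lot 26, 29 or 30 left 533, 573 or 472 higher and 306, 361 or 300 lower. Fmo2 (5.86 ± 0.45), Cdh8 (5.67 ± 0.46), Adamts18 (5.4 ± 0.30), Efemp1 (5.39 ± 0.33), Fam19a1 (4.27 ± 0.31), Nav3 (4.07 ± 0.16), Stmn2 (4.06 ± 0.26) and Mfap5 (3.84 ± 0.22) had the highest folds.

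Of 30 matrix genes, 23 were higher than in Tcf21 and Nr2f2 cells and 0 lower (median 1.08, against 0.00 over all genes tested), and 20 of 36 transcription factors were higher and 8 lower (median 0.78). Tbx2, Lhx9, Gata4, Hand2, Nr5a1 and Snai2 were among the lower factors. The lowest fold was that of Myh8, a myosin heavy chain, with 3.25, 1.63 and 4.57 CPM against 53.9, 26.2 and 36.9 CPM (-3.67 ± 0.40, adjusted p = 0.00012). Calb1 (-2.06 ± 0.37), Pcp4l1 (-1.93 ± 0.16), Tceal6 (-1.93 ± 0.25) and Tulp2 (-1.91 ± 0.19) were also lower, Calb1 without a call by DESeq2 (adjusted p = 0.0613) or without lot 30 (adjusted p = 0.0515). Exons of Tulp2 share 387 bases with Dhdh.

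Hox genes were called in both directions in this comparison. Of 28 tested, 21 were higher and 3 lower (median 1.47), and the 3 lower genes were Hoxd9, Hoxd10 and Hoxd11. Hoxd9 had 26.7, 51.7 and 36.6 CPM against 126, 147 and 139 CPM (-1.91 ± 0.19, adjusted p = 6.4e-05). Hoxd10 was lower by -1.15 ± 0.14 (adjusted p = 0.00026). Hoxd11 was lower by -0.75 ± 0.18 (adjusted p = 0.022), not passing without lot 26 (adjusted p = 0.181) or lot 30 (adjusted p = 0.105), and against matched cells it was higher (1.14 ± 0.20, adjusted p = 0.00185). The higher genes were of the Hoxa, Hoxb and Hoxc clusters, among them Hoxa11 (2.88 ± 0.48), Hoxb4 (2.42 ± 0.21) and Hoxb5 (2.43 ± 0.43), of which Hoxa11 did not pass without lot 29 (adjusted p = 0.0523). Of 13 retinoic acid genes, 7 were higher and 0 lower (median 0.96), and 12 of 14 kidney stroma genes were higher and 1, Ren1, lower (median 1.21), Ren1 not passing without any 1 of the lots (adjusted p = 0.0502 to 0.155). Of 13 S phase genes, 0 were higher and 11 lower (median -0.57), led by Mcm5 (-0.91 ± 0.10, adjusted p = 0.00019).

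**Figure D4:**
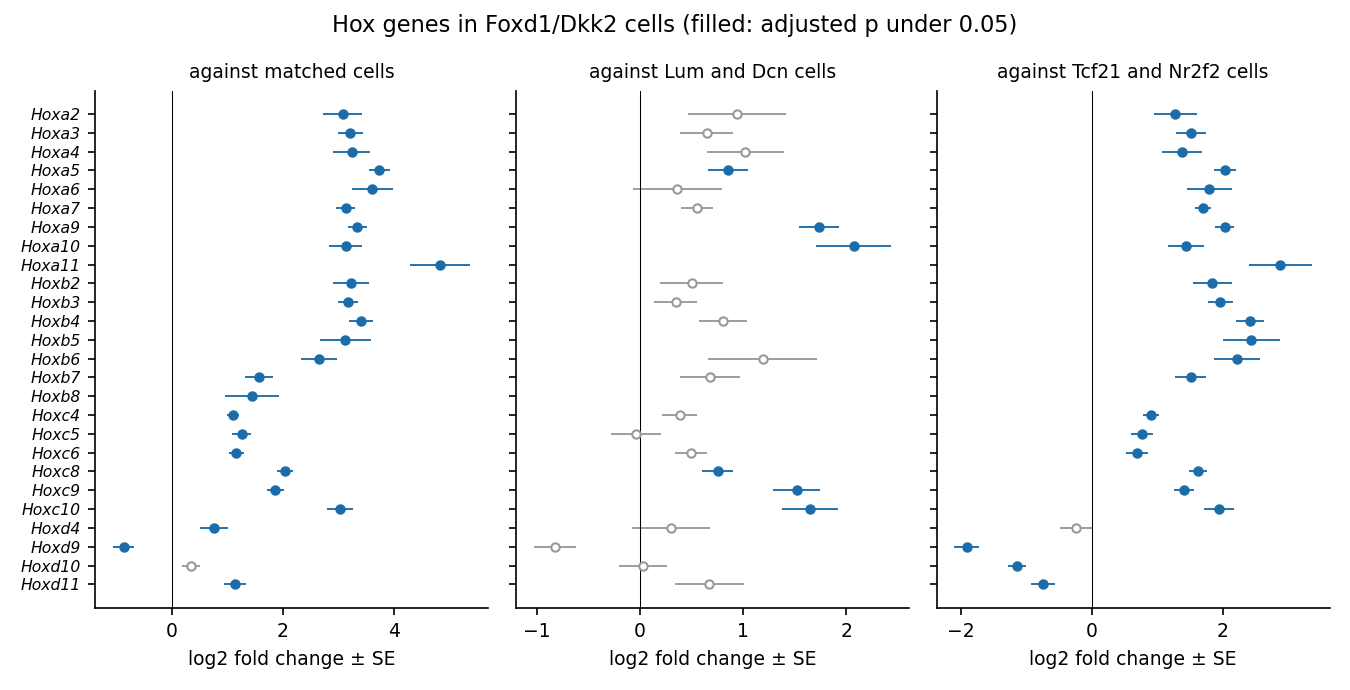
Log2 fold change ± SE of the Hox genes that passed in at least 1 of the comparisons between Foxd1/Dkk2 cells and matched cells, Lum and Dcn cells, and Tcf21 and Nr2f2 cells (n = 3 lots a group); filled points passed, open points did not, and genes not tested in a comparison have no point. Hoxa9 and Hoxa10 are to the right of 0 in all 3 panels, and Hoxd9, Hoxd10 and Hoxd11 lie to the left in the last.

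Levels differed across the boundary of the rule. Col1a1 was at 630 CPM over the lots in the 179 Foxd1/Dkk2 cells with 1 of Postn, Twist1, Nefm and Shisa3, and at 972, 1251 and 1271 CPM in those with 2, 3 and all 4. Just outside, it was at 103 CPM in 334 cells with Foxd1 or Dkk2 and none of the 4 genes, at 268 CPM in 2550 cells with at least 1 of the 4 genes alone, and at 44.0 CPM in 15985 cells with neither. Cells that met only the Foxd1 or Dkk2 condition were thus closer in Col1a1 to cells with neither than to Foxd1/Dkk2 cells. Ebf1, which the rule did not use, went from 53.3 CPM with 1 of the 4 genes to 107, 127 and 212 CPM, against 12.1, 15.1 and 2.90 CPM in the 3 groups outside. Crabp1 went from 234 to 435 and 650 CPM and was at 474 CPM with all 4, against 29.6, 50.7 and 15.4 CPM outside.

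The ovarian genes Wnt4 and Fst, picked after their values were seen, had lower values inside the rule than in cells with neither condition. Wnt4 was at 307, 299, 240 and 165 CPM with 1, 2, 3 and 4 of the genes, and at 505 CPM in cells with Foxd1 or Dkk2 alone, as in cells with neither. Fst was at 110, 139, 94.4 and 95.4 CPM, against 628, 302 and 591 CPM outside. Upk3b, a surface epithelium gene, had no such order, at 70.4, 25.0, 8.99 and 28.9 CPM against 54.3, 44.0 and 46.7 CPM outside. Among the Foxd1/Dkk2 cells Hoxa5 had 87.5 and 86.0 CPM with 1 and 2 of the genes and 49.5 and 35.6 CPM with 3 and 4, all above the 2.43 CPM of cells with neither. These are values over all lots without a test, and the 4 classes had median depths of 7950, 7102, 7448 and 9613.5 UMIs.

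**Figure D5:**
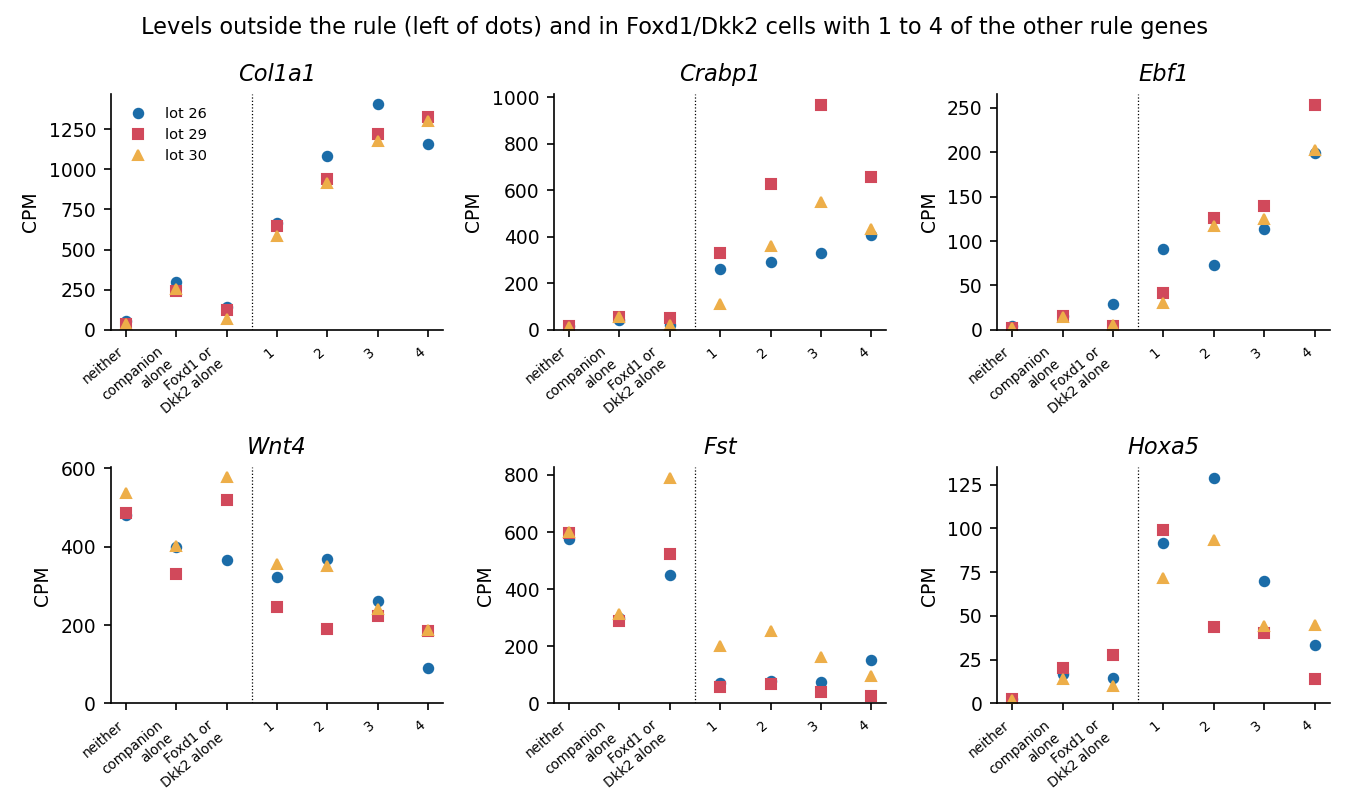
CPM of 6 genes in cells outside the rule, left of the dotted line (neither condition, 1 or more of Postn, Twist1, Nefm and Shisa3 alone, marked companion alone, and Foxd1 or Dkk2 alone), and in Foxd1/Dkk2 cells with 1 to 4 of those genes; each point is 1 lot. Col1a1, Crabp1 and Ebf1 step up at the line, Fst is lower to its right, and Wnt4 is below all outside values with 3 or 4 of the genes.

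Within the group, the 265 cells with Foxd1 and no Dkk2 UMI were compared with the 101 cells with Dkk2 and no Foxd1 UMI. Of 6792 genes tested, 0 were higher and 7 lower in the Foxd1 cells by edgeR (0.103%), with 469 genes at an unadjusted p under 0.05, and DESeq2 called 1 higher and 10 lower. With the lot as a block the counts were 20 higher and 52 lower. Without lot 26, 29 or 30 there were 1, 3 or 0 higher and 2, 35 or 1 lower, and without marked doublets 1 and 3. The call counts were thus unstable, and a UMI of the other gene may have been missed at this depth.

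Enpp2, a secreted enzyme that makes lysophosphatidic acid, had 23.8, 16.6 and 21.6 CPM in the Foxd1 cells of lots 26, 29 and 30 and 207, 73.3 and 344 CPM in the Dkk2 cells (-3.29 ± 0.40, adjusted p = 0.0012). It passed under every alternative run. Hoxa5 had 47.6, 47.3 and 53.4 CPM against 207, 88.7 and 157 CPM (-1.56 ± 0.25, adjusted p = 0.021) and did not pass without lot 26 (adjusted p = 0.351) or lot 30 (adjusted p = 0.179). Igfbp3 (-2.25 ± 0.36, adjusted p = 0.021) did not pass without lot 30 (adjusted p = 0.114), nor did Inhba (-1.45 ± 0.26, adjusted p = 0.047) and Hist3h2ba (-1.15 ± 0.21, adjusted p = 0.047) when any 1 lot was left out (adjusted p = 0.0919 to 0.351). At 4000 UMIs Hoxa5, Inhba and Hist3h2ba did not pass (adjusted p = 0.182, 0.191 and 0.166), nor did Igfbp3 (adjusted p = 0.398) and Hist3h2ba (adjusted p = 0.0834) under the strict rule of 2 UMIs. Inhba (adjusted p = 0.163 and 0.262) and Hist3h2ba (adjusted p = 0.0501 and 0.0574) were also lost without marked doublets and without cells with Y-linked UMIs, and Hist3h2ba by DESeq2 (adjusted p = 0.0805). All 5 genes were higher in the Dkk2 cells of every lot, which was a condition for naming them. In the Dkk2 cells of lot 26 Pecam1 was at 254 CPM, against 3.86 and 23.8 CPM in lots 29 and 30. With cells carrying Pecam1 or Cdh5 removed, 1 gene was higher and 10 lower.

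Some genes had uneven levels between lots inside the group. Sfrp2, Crabp1 and Cxcl12 were each highest in lot 29, where Crabp1 was at 630 CPM against 309 and 360 CPM in lots 26 and 30. In matched cells Crabp1 was at 22.7 CPM in lot 29 and 19.2 and 20.3 CPM in the others, whereas in Lum and Dcn cells it was also highest in lot 29, at 57.7, 121 and 82.6 CPM in lots 26, 29 and 30. Lot 29 also had the lowest Fst and Gng13 levels, the fewest marked doublets, the highest share of cells with Y-linked UMIs and the shallowest cells. With 1 sample a lot these differences had no test, and their causes cannot be told apart.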

How the data were processed

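Single-cell RNA-seq of 3 lots of thawed E12.5 ovarian somatic cells (10X Genomics 3′ kit) was used. The authors found barcodes with UMI-tools, aligned reads to GRCm38 with STAR 2.7 and counted uniquely mapped reads per gene with featureCounts 2.0.1, and they deposited UMI counts per gene and cell, not normalized. The annotation release and strand setting are not given in the sources used here, so overlapping genes can share reads. Gene positions and overlaps are from GENCODE's annotation of GRCm38.

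Barcodes with 200 to 9000 genes and at most 10% mitochondrial UMIs were kept. The cells and gene lists were chosen with earlier results of these data known. UMIs were summed per lot and group and tested with edgeR 4.0.16 in R 4.3.3 with TMM scaling and the filterByExpr filter, by its quasi-likelihood test, and p-values were adjusted by the Benjamini-Hochberg method across every gene in the fit (threshold 0.05). The rule genes were left out of all counts of calls. The script was tested on simulated data. Scrublet (scanpy 1.11.5, Python 3.11.15), run on each lot with an expected rate of 8%, marked doublets, which were removed only in an alternative.

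Groups of 1 lot come from 1 pool and are paired by construction. The deviations of paired sums from their group means correlated with r of 0.121 to 0.576. The main model had no term for the lot, and the block is an alternative, given beside each count that it moved by over 1.5 times.

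Genes were named by a rule: in each comparison those with the highest and lowest log2 fold changes among genes past the threshold, on the same side in every lot, and at 20 CPM or more in the higher group, then up to 3 genes of each list by size of change against matched cells, and markers that show whether a cell type is present. Other list genes named, chiefly Col1a1, Ebf1, Prrx1, Axin2, Crabp2 and those of the Lum and Dcn and Tcf21 and Nr2f2 comparisons, were chosen after their values were seen.

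Alternatives were a narrower cell filter (500 to 7500 genes, 5% mitochondrial), doublets, cells above the 95th percentile of UMIs, or cells with Y-linked UMIs removed, the rule applied at 4000 UMIs, a strict rule (2 UMIs where 1 was asked), RLE scaling, no low-count filter, DESeq2 1.42.0, the block, and each lot left out. Removal of cells with Pecam1 or Cdh5 UMIs was added after the data were seen. Lots held 87494974 to 141920060 UMIs, and the smallest sum tested held 259269 UMIs in 37 cells. Xist was not analysed here, and some other genes, including some that the naming rule picks, are not reported here.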

Additional observations from a re-analysis of the deposited data

How the results depend on the processing

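No single-gene result that passed in the main fit changed direction under any alternative. Changes of direction in genes that did not pass there were not counted. Over 254 single-gene results and 3550 values, 3380 kept their side of the threshold, 168 no longer passed and 2 newly passed. The share of cells was 1.68% to 2.12% under the alternatives other than the strict rule, which gave 1.26%. Leaving out 1 lot gave shares of 1.71% to 2.26%, 1276 to 1453 genes higher and 1343 to 1543 lower against other kept cells, 1209 to 1601 higher and 1297 to 1547 lower against matched cells, 74 to 99 higher and 18 to 43 lower against Lum and Dcn cells, 472 to 573 higher and 300 to 361 lower against Tcf21 and Nr2f2 cells, and 0 to 3 higher and 1 to 35 lower between Foxd1 and Dkk2 cells; fewer samples remained in these fits. Against Lum and Dcn cells, no low-count filter gave 310 higher and 169 lower, and removing doublets 126 lower. Against Tcf21 and Nr2f2 cells removing doublets gave 1065 lower. Between Foxd1 and Dkk2 cells, no low-count filter gave 39 higher and 114 lower, DESeq2, doublets removed, deep cells removed, the rule at 4000 UMIs and removal of Pecam1 or Cdh5 cells 1 higher each, the strict rule 2 higher, and doublets or cells with Y-linked UMIs removed 3 lower. With the lot as a replicate block the counts were 350 and 344 against Lum and Dcn cells, 1550 and 1667 against Tcf21 and Nr2f2 cells, and 20 and 52 between Foxd1 and Dkk2 cells. Of the named genes, the block changed the calls of Amh and Cdh5 against matched cells and no other. The causes were not tested. Sums of Foxd1/Dkk2 cells held 1537002 to 2188551 UMIs, so genes near 1 CPM rest on 1 to 3 UMIs a lot.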
